A study of Homo sapiens with 4 samples.

Results

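Integrins are the receptors by which epithelial cells hold on to the matrix beneath them, and 10 genes that encode integrin subunits of epithelial cells were followed here. The members were named by family and tissue and not by their values, although earlier results of these data were known. They are *ITGA2*, *ITGA3*, *ITGA5*, *ITGA6* and *ITGAV* for the 5 alpha subunits, and *ITGB1*, *ITGB4*, *ITGB5*, *ITGB6* and *ITGB8* for the 5 beta subunits. All 10 were found by Ensembl identifier among the 63677 genes of the count files. RNAseq was performed on 4 libraries, 2 from FLO-1LM and 2 from FLO-1 parental cells, to compare the expression of a highly metastatic subline with that of the line it came from. The FLO-1 line is an established cell line of human esophageal adenocarcinoma. To obtain FLO-1LM, pieces of liver tumor from FLO-1 xenografts were re-implanted under the skin of NSG mice, an immunodeficient strain, and cells of a resulting liver deposit were brought into culture. The labels name no drug and no engineered allele for either line, and both were harvested before confluence after a change of medium. FLO-1LM is a single subline, so what belongs to metastatic growth and what belongs to this isolate cannot be told apart. Separate cultures are not stated for the 2 libraries of a line, so p-values measure only the spread between these libraries, which may be technical.

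An integrin is a pair of 1 alpha and 1 beta chain, and the pair decides the ligand. The beta 1 chain joins alpha 2 to bind collagen, alpha 3 or alpha 6 to bind laminin, and alpha 5 or alpha v to bind fibronectin and related matrix proteins. Beta 4 pairs with alpha 6 alone and forms the hemidesmosome, the rivet that ties keratin filaments to the basement membrane. Alpha v also pairs with beta 5, a vitronectin receptor, and with beta 6 and beta 8, which bind the latent form of TGF-beta. Inside the cell the beta tails recruit talin and kindlin, which connect the receptor to actin. In the epithelium of the esophagus these receptors are known for anchoring cells to the basement membrane, and in carcinomas for the traction that moving cells need.

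Total counts ran from 19060310 to 25920336 per library. Levels are given as CPM, the count of a gene scaled to a common library size after TMM normalisation, and differences as log2 fold changes of FLO-1LM against parental cells from edgeR's quasi-likelihood test, with p-values adjusted by the Benjamini and Hochberg method over the 17143 genes tested. The labelled cell type was checked against epithelial and other markers, with no list for a mesenchymal state of the tumor cells. *VIM*, which encodes the mesenchymal filament protein vimentin and was named after its values were seen, had 30647 to 40598 counts a library. Keratin 8 and keratin 18, the filament proteins of simple epithelia, were abundant, and the summed level of 6 epithelial markers was 848 to 862.5 CPM in parental cells and 487.9 to 501.9 in FLO-1LM. *EPCAM*, a surface protein of most carcinomas, was nearly absent, with 3 and 12 counts in FLO-1LM and 4 and 3 in parental cells. *KRT8*, *KRT18*, *KRT19* and *CDH1*, 4 of the 5 epithelial markers tested, were lower in FLO-1LM, with a log2 fold change of −2.21 for *CDH1*. The fifth, *KRT7*, was higher in both FLO-1LM libraries, at 6.37 and 6.06 CPM against 3.08 and 4.90 in parental cells, and was not called (log2 fold change 0.64, 95% interval 0.09 to 1.20, adjusted p = 0.303 from edgeR). Mitochondrial genes took 9.96% and 9.57% of the counts in FLO-1LM and 7.93% and 8.31% in parental cells. With mitochondrial genes left out, the log2 fold change was −0.32 for *ITGA3* and 0.18 for *ITGB1*, the same as with them. Genes called in all were then 383, against 382. What part the marker or mitochondrial differences have in those of the integrin genes was not tested otherwise. Human markers of hepatocytes and leukocytes were near 0 in both lines. Of 5 hepatocyte markers 3, *ALB* among them, had no count in any library, and the summed level of 6 leukocyte markers did not exceed 0.943 CPM. Of 6 fibroblast markers *COL3A1* and *DCN* were at 0, and *COL1A1* made up most of the 10 to 13.1 CPM summed over the list. The 3 endothelial markers with an identifier in the files summed to at most 0.313 CPM. Over the 4 platelet and megakaryocyte markers the sum was 12.6 to 14 CPM, most of it from *ITGA2B*. Since reads were mapped to the human genome, these markers are no check for mouse cells of the host.

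Most of the 10 members were expressed in both lines, and at close to the same level. Of the 10 members 9 had counts in every library and passed the low-count filter, and only *ITGB6* did not. To compare genes with each other, CPM was divided by the length of a gene's exons in kb. On that scale *ITGA3* was highest in parental cells (39.9 ± 0.91 CPM per kb, SD, n = 2), followed by *ITGB1* (34.8 ± 0.095) and *ITGB5* (32.0 ± 0.79). *ITGA6* (16.8 ± 0.25) and *ITGAV* (16.7 ± 0.15) came next, with overlapping ranges, and then *ITGA5* (11.1 ± 0.73). The other 4 lay far lower: *ITGB4* at 1.87 ± 0.032, *ITGB8* at 0.718 ± 0.17, *ITGA2* at 0.419 ± 0.098 and *ITGB6* at 0. Apart from *ITGA6* and *ITGAV*, neighbours in this order did not overlap between the libraries of the parental line. In FLO-1LM the order was the same but for the top, where *ITGB1* (39.5 ± 3.5 CPM per kb) stood above *ITGA3* (31.9 ± 0.36).

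The order depends on which length is used. The exons of all annotated isoforms of *ITGB1* and *ITGAV* span 14561 and 19336 bases, and their canonical transcripts only 3735 and 7039. With the canonical length *ITGB1* led in both lines (135.2 and 135.7 CPM per kb in the parental libraries), *ITGA3* came second, and *ITGAV* and *ITGB5* could not be separated in parental cells. The 4 lowest genes and their order were the same with either length.

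**Figure D1:**
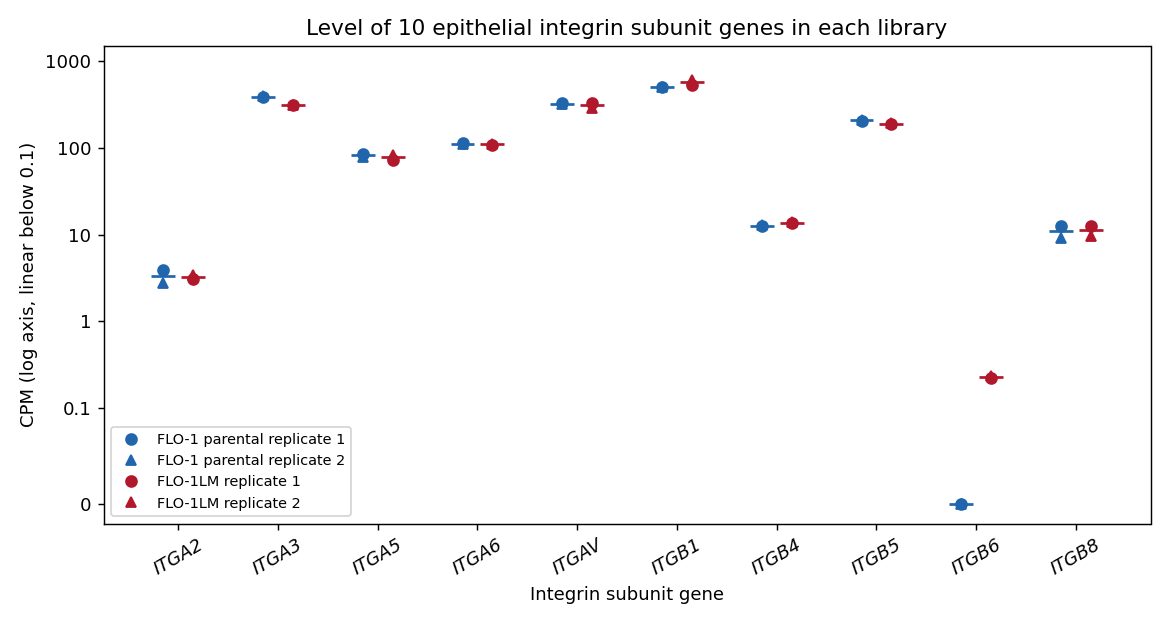
CPM after TMM scaling (y axis, logarithmic above 0.1 and linear below) for the 10 integrin subunit genes (x axis) in the 4 libraries, with circles and triangles for replicates 1 and 2 and bars for the mean of each line. *ITGB6* is at 0 in both parental libraries and at 0.224 and 0.233 CPM in FLO-1LM, *ITGA3* is lower in both FLO-1LM libraries, and most other pairs of means nearly coincide. Because the values are not divided by length, heights should be compared within a gene.

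The start region of *ITGB6*, the lowest member, was unlike the first listed ones of the other members shown. RefSeq promoter windows on GRCh38.p14, from 250 bases before to 50 bases after a start site, were found for 8 of the 10 members (13 windows), and not for *ITGA3* and *ITGB4*. Shown 5′ to 3′ are the first listed windows of *ITGB1*, the beta chain of most of these receptors, at chr10:32958181-32958480 on the reverse strand, of *ITGB6*, the member nearest to 0, at chr2:160200223-160200522 on the reverse strand, and of *ITGA2*, a second gene of low level, at chr5:52989102-52989401 on the forward strand. Capitals mark 6-letter GC boxes (GGGCGG or its complement CCGCCC). The windows were also searched on both strands for TATAAA and TGAGTCA, an AP-1 motif, and neither was found in these 3.
ITGB1: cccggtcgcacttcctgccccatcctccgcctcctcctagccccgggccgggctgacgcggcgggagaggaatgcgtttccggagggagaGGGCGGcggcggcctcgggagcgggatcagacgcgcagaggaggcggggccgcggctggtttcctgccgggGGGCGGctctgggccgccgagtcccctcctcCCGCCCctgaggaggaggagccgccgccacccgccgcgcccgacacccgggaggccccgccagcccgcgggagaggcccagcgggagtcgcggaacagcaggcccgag
ITGB6: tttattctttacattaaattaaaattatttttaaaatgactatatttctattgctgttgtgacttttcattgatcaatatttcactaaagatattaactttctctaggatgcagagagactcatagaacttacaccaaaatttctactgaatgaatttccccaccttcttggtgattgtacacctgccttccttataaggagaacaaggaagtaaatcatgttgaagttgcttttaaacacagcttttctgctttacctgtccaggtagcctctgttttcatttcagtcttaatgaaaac
ITGA2: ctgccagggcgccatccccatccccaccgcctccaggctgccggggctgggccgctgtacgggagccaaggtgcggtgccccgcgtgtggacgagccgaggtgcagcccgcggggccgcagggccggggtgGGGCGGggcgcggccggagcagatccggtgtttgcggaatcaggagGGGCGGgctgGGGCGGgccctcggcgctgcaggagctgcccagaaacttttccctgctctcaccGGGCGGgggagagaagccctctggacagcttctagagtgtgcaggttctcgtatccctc
The *ITGB1* window was 78.3% G and C, held 39 CpG dinucleotides and had 3 GC boxes. That of *ITGB6* was 31.7% G and C, with 0 CpG and 0 GC boxes, and only 1.74% of the 35116 windows in the table had a lower GC content. *ITGA2*, which was also low, had a window of 72.7% G and C with 27 CpG and 4 GC boxes, and so did *ITGB8* (71.7%, 28 CpG, 2 GC boxes). A GC-rich start was shared by genes at both ends of the range of levels, but not by every member of higher level. The first listed windows of *ITGB5* and *ITGA6* were 49.7% and 53.0% G and C, and their other listed windows were richer. Over all windows the median was 58.7% G and C with 14 CpG, 45% held a GC box, 11.5% the TATAAA motif and 4.95% the AP-1 motif. Among the members the AP-1 motif was present in the window of *ITGA5* only. These letters describe the reference and not the DNA of FLO-1 cells, and 4 members have more than 1 listed start, with other compositions (*ITGAV*, 70.7% and 41.3%). The second window of *ITGB1* was 40.7% G and C, with 4 CpG and 0 GC boxes.

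Of the 9 members tested, 1 passed an adjusted p of 0.05 and it was lower in FLO-1LM. Over all genes 2.23% were called, 1.83% as lower and 0.402% as higher, and of protein-coding genes 1.65% were called, 1.19% as lower. With 9 genes, a single call says nothing about the members as a set. DESeq2 and limma voom also called 1 member. The log2 fold changes of the members ran from −0.32 to 0.18 with a median of −0.022. Their median absolute size, 0.0772, was below that of all genes tested, 0.137, and of protein-coding genes, 0.112. Neither of these sets was matched to the members for depth. The CPM ranges of the lines did not overlap for 4 of the 9, in a comparison where this held for 42.6% of all genes. For the 6 members with at least 1000 counts in every library the standard error was 0.07 to 0.093 on the log2 scale, and for the other 3 it was 0.16 to 0.31. A lower level in every cell and fewer expressing cells cannot be told apart in these bulk libraries.

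**Figure D2:**
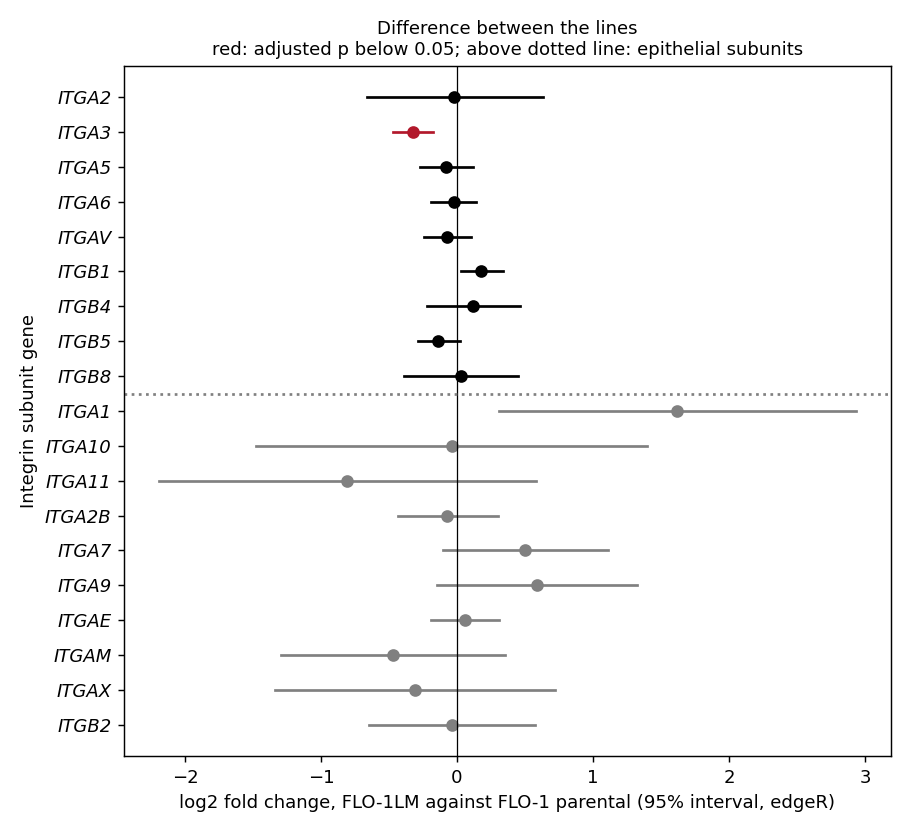
log2 fold change of FLO-1LM against FLO-1 parental (x axis, points) with its 95% interval (lines) for 9 members, above the dotted line, and 10 other integrin subunits that passed the low-count filter, below it (y axis). *ITGA3*, in red, is the one gene with an adjusted p below 0.05, and all other intervals but those of *ITGB1* and *ITGA1* include 0.

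The laminin receptors contained the gene that changed. *ITGA3* (ENSG00000005884) encodes the alpha 3 chain, which pairs with beta 1 to bind the laminins of the basement membrane, and lies on the forward strand of GRCh37 at chr17:48133332-48167845. It was measured at 309.8 and 314.8 CPM in FLO-1LM and at 384.4 and 397.0 in parental cells. Both FLO-1LM libraries were lower than both parental ones, and the gap of the means, 312.3 ± 3.55 against 390.7 ± 8.93 CPM (SD, n = 2), exceeded the spread within either line. edgeR gave a log2 fold change of −0.32 (standard error 0.07, 95% interval −0.47 to −0.18, adjusted p = 0.0171), so that *ITGA3* fell by 20.1%. It stood at rank 212 by p among the genes tested. The call was lost when either parental library was left out, to an adjusted p of 0.148 without replicate 1 and 0.278 without replicate 2 in edgeR, while the log2 fold change stayed between −0.35 and −0.30. No gene of the count files that has a position in the annotation used here overlapped *ITGA3*.

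*ITGA6* and *ITGB4* make up the hemidesmosomal laminin receptor. *ITGA6* (ENSG00000091409, chr2:173292082-173371187, forward strand) encodes alpha 6 and gave 109.0 and 111.9 CPM in FLO-1LM and 113.3 and 111.0 in parental cells. The lines overlapped, with a log2 fold change of −0.02 (95% interval −0.19 to 0.14, adjusted p = 0.948 from edgeR), and the same interval in percent ran from −12.2% to 10.4%. *ITGB4* (ENSG00000132470, chr17:73717408-73753899, forward strand) encodes beta 4, whose long tail binds the keratin linker plectin. It was scarce beside *ITGA6* on the CPM per kb scale, and gave 13.6 and 13.9 CPM in FLO-1LM and 12.5 and 12.8 in parental cells. FLO-1LM was the higher in both libraries, but the log2 fold change of 0.12 had a 95% interval from −0.22 to 0.46 (adjusted p = 0.846 from edgeR). The ratio of *ITGA6* to *ITGB4* counts was 8.04 and 8.07 in FLO-1LM and 9.08 and 8.69 in parental cells.

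*ITGB1* (ENSG00000150093, chr10:33176201-33294720, reverse strand) encodes beta 1, the common partner of the alpha chains measured here. It gave 538.4 and 610.6 CPM in FLO-1LM against 505.0 and 507.0 in parental cells. Both FLO-1LM libraries were higher, yet they differed from each other by more than the lower of them differed from the parental line. For *ITGB1* the log2 fold change came to 0.18, with a standard error of 0.074 and a 95% interval of 0.03 to 0.34. By edgeR the unadjusted p was 0.0232 and the adjusted p 0.293, and the gene was not called. The direction held with any library left out, but the size depended on which FLO-1LM library was kept. Without parental replicate 1 or 2 the log2 fold change was 0.18 or 0.19. Without FLO-1LM replicate 1 it was 0.27 (adjusted p = 0.0177 from edgeR), and without FLO-1LM replicate 2 it was 0.09 (adjusted p = 0.59 from edgeR).

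**Figure D3:**
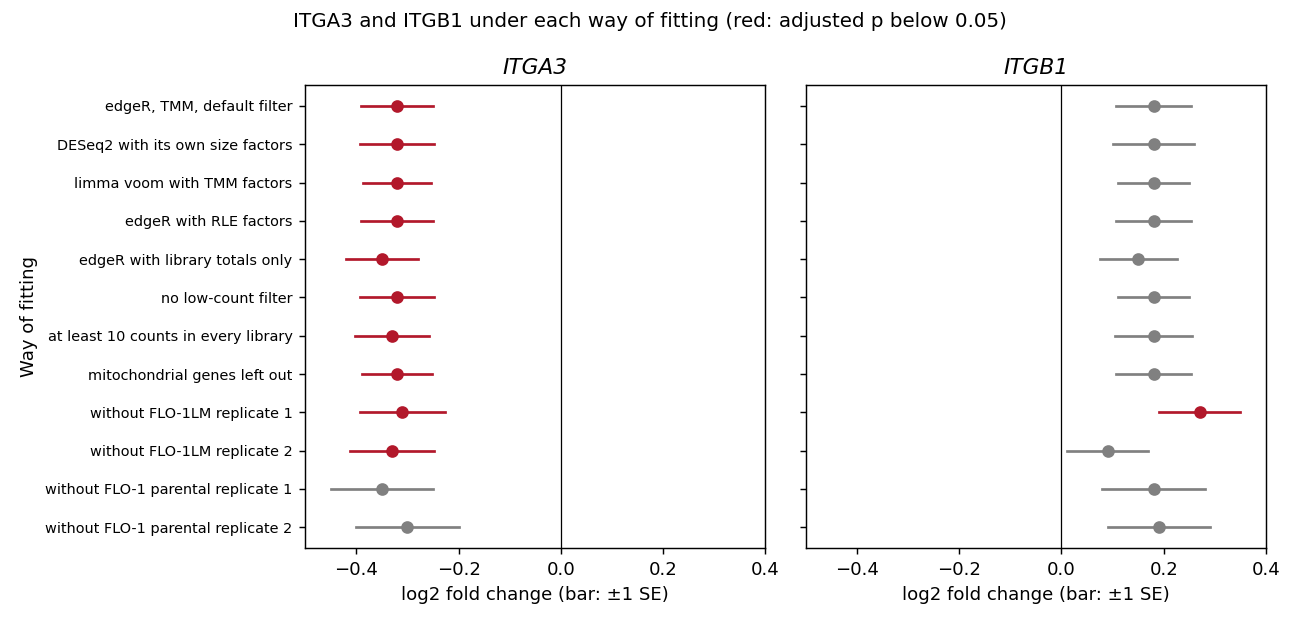
log2 fold change (x axis, points with bars of ±1 standard error) of *ITGA3*, left, and *ITGB1*, right, under each way of fitting (y axis), in red where the adjusted p was below 0.05. *ITGA3* stays between −0.35 and −0.30 and loses its call without either parental library, while *ITGB1* runs from 0.09 to 0.27 and is called in a single fit.

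The genes of the receptors for fibronectin and vitronectin showed no change past the threshold. *ITGA5* (ENSG00000161638, chr12:54789045-54813050, reverse strand) encodes alpha 5, the main fibronectin receptor chain. Its 72.0 and 83.4 CPM in FLO-1LM lay across the 85.8 and 78.2 of parental cells (log2 fold change −0.08, 95% interval −0.27 to 0.12). *ITGAV* (ENSG00000138448, chr2:187454737-187545628, forward strand) encodes alpha v, the chain shared by the beta 5, beta 6 and beta 8 receptors. It gave 331.7 and 285.4 CPM in FLO-1LM and 325.9 and 321.7 in parental cells, so that FLO-1LM replicate 2 was the lowest library and the parental pair sat between the FLO-1LM libraries. Its log2 fold change was −0.07 (95% interval −0.24 to 0.10). *ITGB5* (ENSG00000082781, chr3:124480795-124620265, reverse strand) encodes the beta 5 chain of the vitronectin receptor. It was lower in both FLO-1LM libraries, at 186.3 and 192.6 CPM against 204.8 and 212.1. The log2 fold change of −0.14 had a 95% interval from −0.29 to 0.02 (adjusted p = 0.477 from edgeR), and it was not called.

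Transcripts of the chains particular to the receptors for latent TGF-beta and for collagen were scarce. *ITGB8* (ENSG00000105855, chr7:20370325-20455377, forward strand) encodes beta 8 and gave 12.7 and 9.63 CPM in FLO-1LM and 12.7 and 9.02 in parental cells. The spread within each line covered the whole difference (log2 fold change 0.03, 95% interval −0.39 to 0.45). *ITGB6* (ENSG00000115221, chr2:160956178-161056824, reverse strand) encodes beta 6, a chain that epithelia carry at low level and raise in repair and in many carcinomas. It had 5 and 6 counts in FLO-1LM and 0 and 0 in parental cells. Summed over a line this was 0.229 CPM in FLO-1LM (95% exact Poisson interval 0.114 to 0.41, counting error only), which is 3.15 times the 0.0728 CPM that 3 counts over both parental libraries would give, and at least 1.57-fold higher at the lower end of the interval. It was too low for the main test. Without a low-count filter edgeR gave it an unadjusted p of 0.0677 and an adjusted p of 0.578, so a difference between the lines was not established at this depth. *ITGA2* (ENSG00000164171, chr5:52285170-52390609, forward strand) encodes the alpha 2 chain of the collagen receptor and gave 3.10 and 3.46 CPM in FLO-1LM and 3.86 and 2.76 in parental cells. Its log2 fold change was −0.02, with a 95% interval from −0.66 to 0.63, or −36.8% to 54.3%, so a change of that size was not detectable at this depth.

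A cell can alter its receptors by changing their proportions as well as their levels. Protein, pairing and surface level were not measured, so the shares given here are of mRNA and not of receptors. Within the beta chains *ITGB1* took 54.0% and 56.5% of the summed CPM per kb in FLO-1LM and 50.4% and 49.8% in parental cells, and *ITGB5* took 41.8% and 39.8% against 45.7% and 46.6%. Within the alpha chains *ITGA3* took 42.0% and 42.6% in FLO-1LM and 46.1% and 47.8% in parental cells. The share of *ITGA6* was 21.7% and 22.2% against 19.9% and 19.6%. These shares did not overlap between the lines, whereas those of *ITGAV* and *ITGA5* did. For scale, the CPM ranges of the lines did not overlap for 42.6% of all genes tested. Shares within a chain type add up to a fixed total, so a rise in any share comes with a fall in others. The level of *ITGA6* itself was 110.4 CPM in FLO-1LM and 112.2 in parental cells. With the canonical transcript length the *ITGB1* share was 76.8% in FLO-1LM and 72.9% in parental cells, so the size of a share rests on the length and its direction does not. The count of *ITGA3* per count of *ITGB1* was 0.575 and 0.516 in FLO-1LM and 0.761 and 0.783 in parental cells, the widest gap of the 4 partner ratios to *ITGB1* whose ranges did not overlap. *ITGA5*, *ITGA6* and *ITGAV* gave mean ratios of 0.135, 0.193 and 0.542 in FLO-1LM against 0.162, 0.222 and 0.640 in parental cells. All 4 share *ITGB1* as the denominator, so they are not separate observations. Neither shares nor ratios were tested, since an exact permutation test of 2 libraries against 2 cannot give a p below 0.333.

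**Figure D4:**
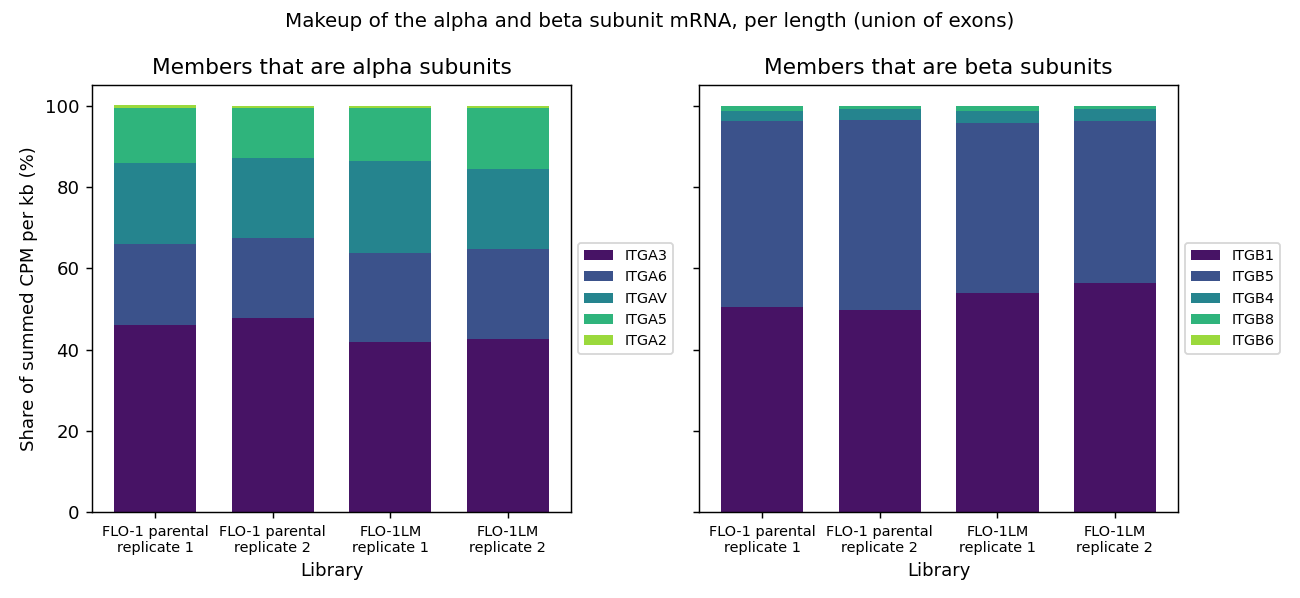
Share of the summed CPM per kb (y axis, percent) taken by each alpha chain, left, and each beta chain, right, in the 4 libraries (x axis). The *ITGA3* block shrinks from 46.1% and 47.8% in parental cells to 42.0% and 42.6% in FLO-1LM, the *ITGB1* block grows, and *ITGA2*, *ITGB6* and *ITGB8* are barely visible.

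The remaining integrin genes ranged from no count to a mean of 26.3 CPM in FLO-1LM, for *ITGAE*. In that line the members *ITGB4* and *ITGA2* were at 13.7 and 3.28 CPM. Of the 16 other subunits 10 passed the low-count filter, 0 were called by edgeR, DESeq2 or limma voom, and 1 had an unadjusted p below 0.05 from edgeR. That gene was *ITGA1*, a collagen receptor chain, at 1.66 and 1.05 CPM in FLO-1LM and 0.454 and 0.417 in parental cells (log2 fold change 1.62, 95% interval 0.31 to 2.93, adjusted p = 0.264 from edgeR). It rests on 8 to 37 counts a library and shares 499 exon bases on the same strand with *PELO*, which has 324 to 531 counts, so its size is uncertain. *ITGAE*, which encodes the alpha chain that pairs with beta 7 on lymphocytes of the gut, was the most abundant, with 26.3 ± 0.319 CPM in FLO-1LM and 25.2 ± 0.335 in parental cells (SD, n = 2). It shares 427 exon bases with *HASPIN*, which lies within it on the opposite strand with 345 to 458 counts, and the strand setting of the counting is not stated. Its partner *ITGB7* had 0 to 8 counts. *ITGA2B*, the platelet fibrinogen receptor chain, gave 11.6 ± 1.41 and 12.2 ± 1.09 CPM, although its partner *ITGB3* had at most 4 counts and the platelet genes *GP9* and *PF4* had none. *ITGA7* and *ITGA9* were higher in both FLO-1LM libraries without being called (log2 fold changes 0.50 and 0.59, adjusted p = 0.528 and 0.547 from edgeR). Both share exon bases with a gene on the opposite strand, and for *ITGA9*, at 39 to 74 counts, this is *ITGA9-AS1*, which shares 763 bases and had 50 to 136 counts. For *ITGA10*, *ITGA11*, *ITGAM*, *ITGAX* and the leukocyte chain *ITGB2* the means were 0.493 to 4.06 CPM, with log2 fold changes from −0.81 to −0.04. *ITGA4*, *ITGA8* and *ITGAL* had no count in any library, and *ITGAD* had 1.

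The proteins that work with integrins were described from 6 lists with 83 different genes in all, of which 71 could be tested. Only 1 of the 71 was called, by edgeR, DESeq2 and limma voom alike, beside 2.23% of all genes. An unadjusted p below 0.05 from edgeR was found for 12 of the 71, and for 12.4% of all genes tested. The called gene was *CCN1*, a matrix protein that alpha v and alpha 6 integrins bind. It gave 121.6 and 137.5 CPM in FLO-1LM and 104.2 and 102.0 in parental cells, with no overlap. The means were 129.6 ± 11.3 in FLO-1LM and 103.1 ± 1.51 in parental cells, so that it rose in FLO-1LM (SD, n = 2; log2 fold change 0.33, 95% interval 0.16 to 0.51, adjusted p = 0.0435 from edgeR). The call was lost with library totals in place of TMM factors (adjusted p = 0.0743 from edgeR) and without FLO-1LM replicate 2, parental replicate 1 or parental replicate 2 (adjusted p = 0.101, 0.4 and 0.446), at log2 fold changes of 0.24 to 0.35. The other 12 tested of 20 matrix ligands had 0 calls. The most abundant were laminin chains, *LAMB2* at 723.6 ± 36.8 CPM in FLO-1LM and 721.7 ± 5.91 in parental cells, *LAMA5* at 383.7 ± 8.95 and 423.6 ± 1.91, and *LAMC1* at 320.3 ± 6.85 and 313.4 ± 17.9. Together these are the chains of the laminin that alpha 3 beta 1 and alpha 6 integrins bind.

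In the talin and kindlin complex, which carries force from the beta tails to actin, 24 of 26 genes were tested and edgeR, DESeq2 and limma voom each called 0. Of these 4, *ACTN1*, *FERMT2*, *PXN* and *TNS2*, had an unadjusted p below 0.05 from edgeR and were named after their values were seen. The number called rose when either FLO-1LM library was left out, as it did over all genes tested. The crosslinkers *ACTN4* and *FLNA* and the talin partner *VCL* were the most abundant, with log2 fold changes of −0.14, −0.05 and 0.07. The 13 tested genes of integrin inhibition and traffic, which recycle receptors through endosomes, had 0 calls by any of the 3 tools and 0 with an unadjusted p below 0.05. *RAB11A*, *SNX17* and *NUMB*, the most abundant, had log2 fold changes of −0.01, −0.06 and 0.07. Among the hemidesmosome genes 6 of 7 were tested, 1 had an unadjusted p below 0.05 (*LAMB3*, also in the list of matrix ligands, named after its value was seen) and 0 were called by the 3 tools. *PLEC*, which encodes plectin, was at 886.5 ± 97.6 CPM in FLO-1LM and 845.8 ± 28.7 in parental cells, *CD151* differed by 0.03 on the log2 scale and *DST* by 0.00.

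Tetraspanins and other membrane partners sit beside integrins and set their clustering. All 12 genes of this list were tested and 0 were called by edgeR, DESeq2 or limma voom. Of these 11 had a log2 fold change below 0, with a median of −0.154 where the median of all genes was 0.002, and 5 had an unadjusted p below 0.05 from edgeR (*CD9*, *CD44*, *CD47*, *CD82* and *TSPAN4*, the last 3 named after their values were seen), beside the 12.4% of all genes. *CD9* was at 341.6 ± 18.6 CPM in FLO-1LM and 389.6 ± 12.6 in parental cells (log2 fold change −0.19, adjusted p = 0.256 from edgeR), and *CD44*, a hyaluronan receptor, at 293.9 ± 15.3 and 341.1 ± 19.2 (−0.22, adjusted p = 0.192 from edgeR). *BSG*, the most abundant of the list, differed by −0.05. Leaving out either FLO-1LM library raised the number called by edgeR, in this list and over all genes tested alike. The number below 0 was 12 with library totals in place of TMM factors, and 10 to 12 with 1 library left out, when the median was −0.15 to −0.05. Of 8 genes around latent TGF-beta, the ligand of the beta 6 and beta 8 receptors, 6 were tested, 1 had an unadjusted p below 0.05 (*LRRC32*, named after its value was seen) and 0 were called by the 3 tools. *LTBP3*, *LTBP1* and *TGFB2* were the most abundant, at log2 fold changes of −0.11, 0.14 and 0.03.

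**Figure D5:**
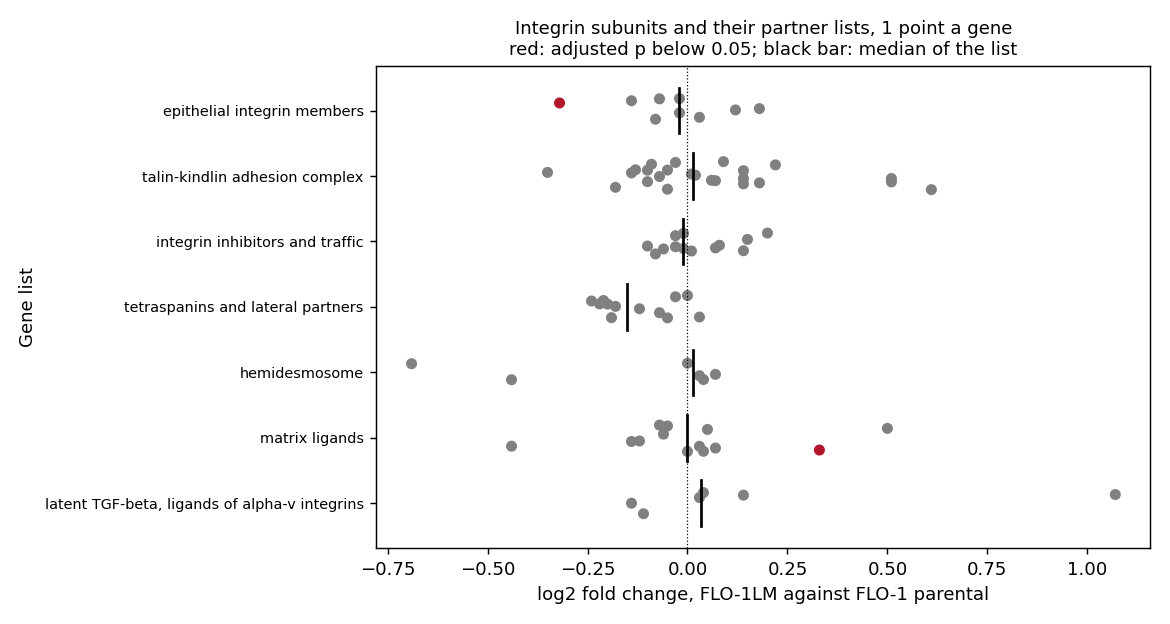
log2 fold change of FLO-1LM against FLO-1 parental (x axis), 1 point a gene, for the tested members and 6 partner lists (y axis), with the median of each list as a black bar and genes with an adjusted p below 0.05 in red. *ITGA3* at −0.32 and *CCN1* at 0.33 are the red points, and the tetraspanin list lies mostly to the left of 0 with its median at −0.154.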

How the data were processed

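Gene expression was measured by RNAseq in 4 libraries of established cell lines, 2 per line, grouped by the cell line given in the labels. The authors prepared directional libraries, trimmed adapters with Trimmomatic 0.30, mapped the reads to GRCh37, and deposited raw read counts per Ensembl gene. The names of the aligner and the counting program, and how strand and multiply mapped reads were handled, are not given in the sources used here. Gene counts pool all isoforms, so the splice forms of *ITGA3*, *ITGA6* and *ITGB4* were not separated.

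From the deposited counts, genes were kept with filterByExpr at its defaults (minimum count 10, minimum total 15), normalisation factors were computed by TMM, and a 2-group model was fitted in R 4.3.3 with edgeR 4.0.16 (estimateDisp, glmQLFit, glmQLFTest). The common biological coefficient of variation was 0.09. Genes with a Benjamini-Hochberg adjusted p below 0.05 over the 17143 tested were called. The standard error is the absolute log2 fold change over the square root of F. DESeq2 1.42.0 and limma 3.58.1 (voom) were alternatives, with other scalings, other filters and each library left out. The model was run on simulated data before use, with an outcome that is not given here. Libraries of a line differed by more than sampling noise (chi-square over degrees of freedom 9.16 in FLO-1LM and 4.37 in parental cells) and were counted as separate samples. Positions, exon lengths and overlaps come from GENCODE v44 mapped to GRCh37, a later annotation than the one counted on, which holds 55665 of the 63677 genes. Promoter windows are from RefSeq on GRCh38.p14, and their coordinates were not mixed with those of GRCh37.

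The members and lists were chosen with earlier results of these data known. Named genes are the 10 members, the other subunits that passed the filter, and from each list every called gene and the 3 with the highest mean CPM. Genes that overlap a member and passed the filter are named with their counts, as are some that overlap other subunits, chosen after their values were seen. The labels give no batch, and any that coincides with a line cannot be told apart from it.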

Additional observations from a re-analysis of the deposited data

How the results depend on the processing

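The log2 fold changes of the 9 tested members were recomputed under 11 alternatives each. In all 89 of these values had the same direction and the same side of the threshold. With library totals in place of TMM factors *ITGB8* turned from 0.03 to 0.00 (just below 0). Leaving out 1 library at a time turned the direction of 4 uncalled members, with ranges of −0.23 to 0.25 for *ITGA2*, −0.19 to 0.02 for *ITGA5*, −0.18 to 0.04 for *ITGAV* and −0.19 to 0.31 for *ITGB8*. In the same fits *ITGA3* ran from −0.35 to −0.30 and *ITGB1* from 0.09 to 0.27. The number of members called ran from 0 to 2 when 1 library was left out, and was 1 in every other fit. That of partner genes and other subunits called ran from 0 to 7, and was 0 with library totals against 1 in the main comparison. Genes called in all were 382, 577 with no low-count filter, and 116 to 1052 when 1 library was left out. Each fit of 3 libraries takes its spread from the pair left whole, and the lone library is assumed to vary like it. Without the filter 74.5% of the called genes were lower in FLO-1LM, against 81.9%, and the share was 66.2% and 66.4% without either FLO-1LM library. With the canonical transcript length, an alternative chosen after seeing the data, the share of *ITGB1* was 76.8% and 72.9% in FLO-1LM and parental cells, that of *ITGAV* 30.1% and 27.9%, and that of *ITGA3* 43.9% and 48.5%, against 55.3% and 50.1%, 21.2% and 19.7%, and 42.3% and 46.9% with all exons. No paired analysis was possible because the labels give no replicate numbers, and those used here only follow the order of deposit within a line. Of the other genes named, *CDH1*, *KRT8*, *KRT18* and *KRT19* were called under all 11 alternatives and *CCN1*, *CD9*, *CD44* and *ITGA1* had 1 direction throughout, and the remaining partner genes were recomputed only as counts per list. Depth limits *ITGB6*, *ITGA2* and *ITGB8* most.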

Other observations

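Genes that overlap the members on the opposite strand had few counts, with 1 exception. *GALK1*, the galactokinase gene, lies opposite the 3′ end of *ITGB4* without sharing exon bases. It had 1276 and 1350 counts in FLO-1LM and 1008 and 920 in parental cells (log2 fold change 0.23, adjusted p = 0.329 from edgeR). *ITGB1-DT*, which shares 401 exon bases with *ITGB1* on the other strand, had 6 and 4 counts in FLO-1LM and 14 and 10 in parental cells (log2 fold change −1.44, adjusted p = 0.53 from edgeR). *ITGB8-AS1*, with 132 shared bases, had 7 to 16 counts, and *PDK1-AS1*, with 52 bases shared with *ITGA6*, had 3 to 15, and neither was called. Among the other subunits *BLOC1S1*, a lysosome trafficking gene that shares 119 exon bases with *ITGA7* on the opposite strand, had 408 and 404 counts in FLO-1LM and 258 and 230 in parental cells (log2 fold change 0.52, adjusted p = 0.122 from edgeR), beside an *ITGA7* difference of 0.50. Whether reads of such pairs were told apart by strand is not stated.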
